A study of Xenopus laevis with 46 samples.

Results

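The Wnt ligands of the early Xenopus laevis embryo other than wnt8a were followed here, with the genes that make, export and inactivate Wnt proteins. Members were the rows of the 2 expression tables whose human match is a WNT gene, PORCN, WLS or NOTUM, leaving out wnt8a.L and wnt8a.S. At stage 10.5 this gave 44 of 43662 rows, 38 of them Wnt ligands and 6 helper genes. At stage 9 it gave 42 of 37005 rows, 36 ligands and 6 helpers, since the WNT7A match Xelaev18041727m and the WNT7B match Xelaev18019743m have no row in that table. A name such as "WNT7A match" means a row that the tables know by an identifier and by its closest human gene. Another 18 rows at stage 10.5 carry a wnt name but no human match. They fall outside the rule and were at 0 in every library.

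The study sequenced polyA-selected RNA of this frog to ask which signals of the early embryo induce the Spemann organizer, the dorsal tissue that directs the body axis. Stage 10.5, the early gastrula, had 29 libraries, and stage 9, the late blastula, had 17. Dorsal and ventral half-embryos were separated at stage 8, cultured until stage 10.5 and sequenced as 5 libraries each. Whole embryos injected at the 2-cell to 4-cell stage with a morpholino against β-catenin (bCatMO) had 3 libraries at stage 10.5 and 2 at stage 9. Lithium chloride (LiCl), which stabilises β-catenin and was applied at the 32-cell stage, had 2 libraries at each stage. Siamois mRNA (Sia, 100 pg), which encodes an organizer-inducing transcription factor, had 2 at each stage. Embryos that the labels give as xWnt8 mRNA-injected (Wnt8) had 3 libraries at each stage. So did embryos injected with mRNA of the secreted antagonist Cerberus (Cer), which the labels call xCer L. The Sia, Wnt8 and Cer embryos were also injected at the 2-cell to 4-cell stage. Whole control embryos had 6 libraries at stage 10.5 and 5 at stage 9. No injection is recorded for these controls, so in comparisons with them injection and the injected reagent cannot be told apart. All embryos were of the Nasco strain, and the labels name the control library that shares a batch with each treated one.

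Wnt proteins are secreted lipid-modified signals. Porcupine (PORCN) attaches the lipid, Wntless (WLS) carries the protein to the cell surface, and Notum removes the lipid outside the cell. Some ligands act through β-catenin, which in the blastula specifies the dorsal side, while Wnt5 and Wnt11 proteins are best known for the non-canonical branch that drives the cell movements of gastrulation. In Xenopus, wnt11b RNA is maternal and is laid down at the vegetal pole of the oocyte.

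Values are the authors' RPKM, read counts scaled by gene length and library size. The reads in genes, recovered from the RPKM steps, numbered 24.53 M to 45.01 M (megareads) for a stage 10.5 library and 27.93 M to 58.47 M for a stage 9 library. Fold changes are log2 differences of RPKM + 0.5 with the standard error of limma's fit across all rows, which understates the change of low rows. A row was called at a Benjamini-Hochberg adjusted p below 0.05. Whether replicates are separate clutches is not in the labels, so p-values cover only the spread of these samples, part of which may be technical. In these bulk samples, fewer expressing cells and less RNA per cell cannot be told apart. Summed RPKM of 29 rows matching dorsal markers, none of them at 0 throughout, was 1662 to 2605 in dorsal half-embryos. In ventral half-embryos it was 449.2 to 603.4. These rows were taken by human match, and mix1.L and mix1.S entered through the match OTX2. The dorsal marker sums here and below can therefore hold rows that are not dorsal markers. The 14 ventral marker rows summed to 527.5 to 760.2 in dorsal and 982.7 to 1608 in ventral half-embryos. In Wnt8 libraries of stage 10.5 wnt8a.L had 55.9, 26.4 and 34.7 RPKM, against 93.2, 65.7 and 102 in the batch controls. There wnt8a.S had 7.31, 5.85 and 6.73, against 21.3, 18.5 and 22.8. At stage 9 wnt8a.L had 21.2, 12.7 and 23.6, against 27.0, 6.81 and 26.0, and wnt8a.S had 8.23, 0.694 and 10.3, against 13.1, 1.52 and 13.6. The injected message was not seen as a rise of these rows, except for wnt8a.L in batch 2 of stage 9. In Cer libraries of stage 10.5 cer1.S was 5.96 ± 0.39 higher on the log2 scale (limma, adjusted p = 2.1e-06). The cer1.L row went the other way, at -4.47 ± 0.29 (limma, adjusted p = 2.0e-06).

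Few of these genes had much RNA. At stage 10.5 the highest library stayed under 1 RPKM in 33 of 44 rows and under 0.1 RPKM in 19, and wnt2b.L was at 0 in all 29. At stage 9, 33 of 42 rows stayed under 1 RPKM. Enough signal to be tested in whole embryos was found in 10 rows at stage 10.5, of which 5 are ligands, and in 8 rows at stage 9, of which 3 are ligands. Rows with under 1 RPKM in nearly all libraries were left out of those fits.

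Among the member ligands, which leave out wnt8a, wnt11b.L was the most abundant in whole control embryos. Its median was 52.2 RPKM at stage 10.5 (range 42.2 to 73.5, n = 6) and 31.7 at stage 9 (19.0 to 47.4, n = 5). The wnt8a.L row, not a member, had 43.6 to 102 RPKM in these controls at stage 10.5 and 6.81 to 27.0 at stage 9. Of the summed RPKM of the member ligands, without wnt8a, wnt11b.L held 73.8% to 85.6% in control libraries at stage 10.5. At stage 9 it held 75.9% to 90.2%. Next among the member ligands at stage 10.5 came wnt5b.S, a non-canonical ligand, with a median of 5.68 RPKM (3.32 to 9.13). The wnt5b.1 row had 4.98 RPKM (4.15 to 6.90). Their ranges overlap, so their order is not set. At stage 9 the medians of these rows were 0.606 RPKM (0.271 to 0.854) and 0.364 RPKM (0.133 to 0.505). Each stage's table was normalised on its own, so the difference between stages was not tested.

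The WNT5A match Xelaev18003033m, another non-canonical ligand, had a control median of 1.51 RPKM at stage 10.5 (0.743 to 2.08) and 3.47 at stage 9 (1.42 to 3.71). At stage 9 it was the second member ligand by median, with wnt8a left out, and its range did not overlap those of the wnt5b rows. The second WNT5A match, Xelaev18001788m, was lower, at 0.225 and 0.263 RPKM. The WNT7A match Xelaev18001817m, one of 3 rows at stage 9 and 4 at stage 10.5 with that match, had 0.808 RPKM (0.524 to 1.16) at stage 10.5 and 0.158 RPKM (0.0243 to 0.497) at stage 9. The other WNT11 matches were near the floor, with control medians of 0.215 RPKM for wnt11.L and 0 for wnt11.S at stage 10.5.

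**Figure D1:**
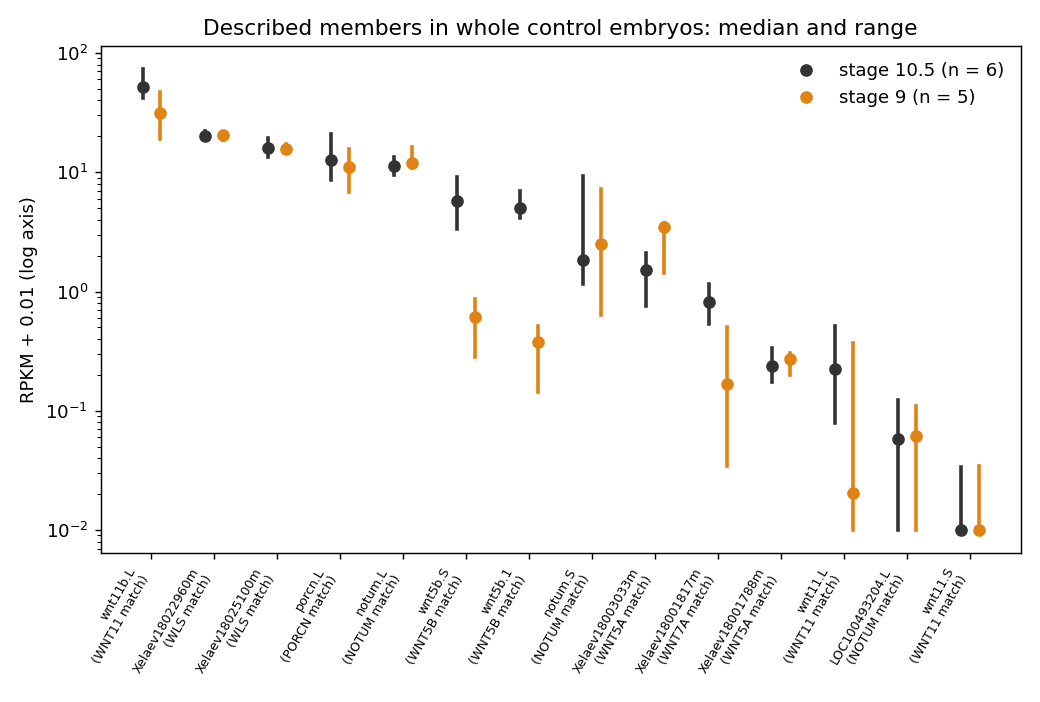
Levels of the 14 rows described here in whole control embryos on a log axis of RPKM + 0.01, with each stage's median as a point and its range as a line (6 libraries at stage 10.5, 5 at stage 9). wnt11b.L is at the top, the WLS, PORCN and notum.L rows follow, and both wnt5b rows sit lower at stage 9 than at stage 10.5.

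Of the 6 helper rows, 4 stood between wnt11b.L and the wnt5b rows. Both WLS matches, Xelaev18022960m and Xelaev18025100m, had control medians of 20.1 and 15.9 RPKM at stage 10.5, and porcn.L and notum.L had 12.5 and 11.3. At stage 9 they were 20.7, 15.6, 11.1 and 11.97 RPKM in the same order. Across the 11 comparisons limma on RPKM called none of these 4 rows. Their log2 fold changes ran from -0.02 to 0.13 for Xelaev18022960m, -0.06 to 0.15 for Xelaev18025100m, -0.02 to 0.15 for notum.L and -0.11 to 0.23 for porcn.L. The lowest adjusted p among them in that test was 0.18, for notum.L. Limma-voom on recovered reads called notum.L with LiCl at stage 10.5, at 0.23 ± 0.07 (adjusted p = 0.049).

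The remaining 30 rows at stage 10.5 and 28 at stage 9 stayed low. The highest was wnt1.S, whose maximum was 1.15 RPKM at stage 10.5 and 0.94 at stage 9. Every other one of these rows was at most 0.679 RPKM at stage 10.5 and 0.704 at stage 9. They are matches of WNT1, WNT2, WNT2B, WNT3, WNT4, WNT6, WNT7A, WNT7B, WNT8B, WNT9A, WNT9B, WNT10A, WNT10B and WNT16.

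Dorsal and ventral half-embryos ask on which side a transcript lies. wnt11b.L had 77.7, 68.8, 104, 76.1 and 121 RPKM in dorsal half-embryos 1 to 5, against 59.6, 46.4, 71.2, 60.4 and 95.9 in ventral half-embryos of the same numbers. The 2 groups overlap, but the dorsal library was higher in each of the 5 same-numbered pairs, by 1.26 to 1.48 times. Without pairing the log2 fold change was 0.43 ± 0.21 (limma, adjusted p = 1, n = 5 each). Libraries of the same number deviated alike from their group means, and a fit blocked on the pair gave 0.43 ± 0.06 (limma, adjusted p = 0.012). No member was called without the block, out of 11 tested, where 0.678% of all rows were called. Of the members 0 had an unadjusted p below 0.05, and limma-voom on recovered reads called 0 of 17, against 0.471% of all rows. With the block 1 member, wnt11b.L, was called, where 2.29% of all rows were.

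Neither wnt5b row was called between the sides. wnt5b.S had 14.6, 5.41, 5.31, 3.04 and 4.04 RPKM in dorsal half-embryos, against 20.3, 6.41, 5.06, 8.03 and 4.999 in ventral ones. Both libraries of pair 1 stood above the other 8. The dorsal library was the lower in 4 of 5 pairs, and the blocked fit gave a log2 fold change of -0.43 (limma, adjusted p = 0.53). For wnt5b.1 it was the lower in 3 of 5 pairs (11.4, 5.50, 4.41, 3.58 and 3.68 dorsally, against 15.8, 5.58, 3.76, 8.63 and 3.30 ventrally). Without pair 1, a setting added once the values were seen, the log2 fold changes were -0.43 and -0.21, with adjusted p = 1 for each.

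wnt11.L, a second WNT11 match, was far lower than wnt11b.L and was read from few reads, 483 over all 29 libraries of stage 10.5. It had 23, 51, 5, 28 and 4 reads in dorsal half-embryos, against 11, 9, 0, 2 and 0 in ventral ones. The dorsal library held more reads, and a higher RPKM, in 5 of 5 pairs. It did not pass the 1 RPKM filter, so it has no value in the RPKM test. By limma-voom on recovered reads with the pair as a block, a setting added once the values were seen, 2 members were called, wnt11b.L and wnt11.L, where 2.74% of all rows were. The read filter of 10 reads in 2 libraries was passed by wnt11.L through its dorsal libraries, so its call supports nothing.

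**Figure D2:**
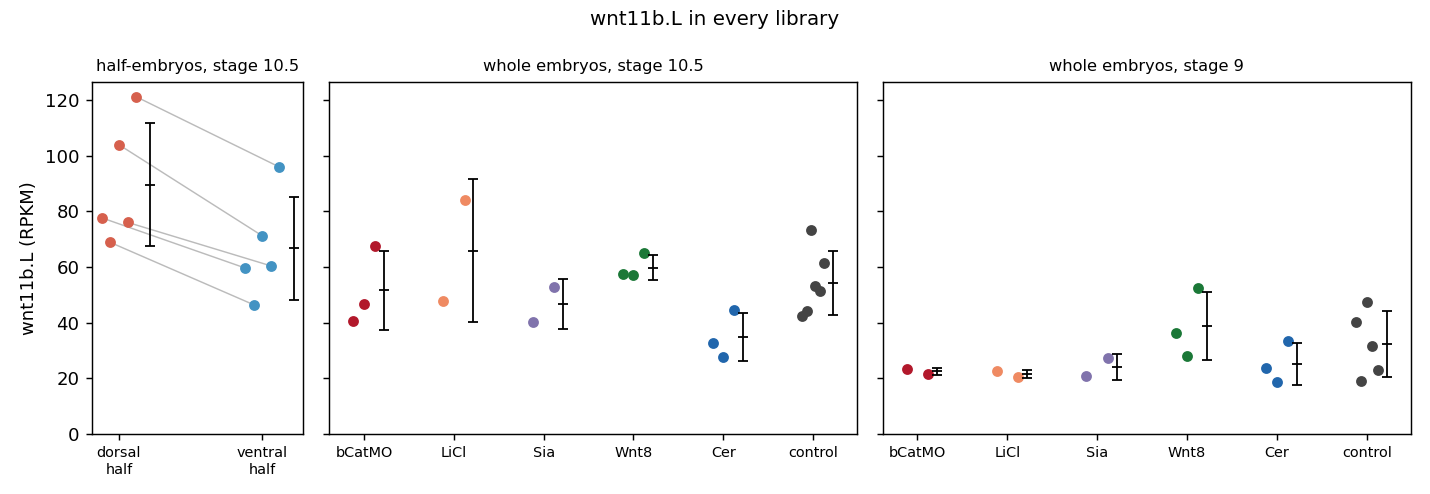
wnt11b.L in every library in RPKM, one point per library, with group mean and SD as bars at the right of each group and lines joining same-numbered half-embryos. Dorsal half-embryos lie above ventral ones in each pair, and the 3 Cer libraries of stage 10.5 lie between 27.4 and 44.4 RPKM.

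Embryos injected with Cerberus mRNA had less wnt11b.L and less of both wnt5b rows at stage 10.5 than their batch controls. These were 3 of the 10 members tested, where 4.54% of all rows were called in either direction, and all 3 were lower (2.9% of all rows were lower). The median log2 fold change was -0.02 over members and 0.003 over all rows.

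wnt5b.S had 3.38, 2.55 and 4.08 RPKM in Cer embryos, against 6.30, 7.63 and 9.13 in the batch controls. Cer did not overlap these 3 controls, though 3.38 and 4.08 RPKM lie within the range of all 6. Cer was the lower in 3 of 3 batches, at 0.333 to 0.536 of its control. The log2 fold change was -1.10 ± 0.13 (limma, adjusted p = 2.0e-04). wnt5b.1 had 2.76, 2.45 and 2.93 RPKM in Cer embryos, against 5.49, 5.995 and 6.90 in batch controls, and lay below all 6 controls (-1.04 ± 0.14, adjusted p = 4.9e-04).

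wnt11b.L had 32.8, 27.4 and 44.4 RPKM in Cer embryos, against 53.1, 51.2 and 61.3 in the batch controls. No Cer library reached the lowest of these 3, but 44.4 RPKM lies above 2 of the other controls (42.2 and 44.3). The ratio to the batch control was 0.536 to 0.725. The log2 fold change was -0.68 ± 0.08 (limma, adjusted p = 2.6e-04). All 3 calls held when any 1 of the 6 libraries was left out. Without batch as a term only wnt5b.1 was called, and adjusted p was 0.31 for wnt11b.L and 0.30 for wnt5b.S. The reads of wnt11.L were 6, 0 and 0 in Cer embryos, against 16, 16 and 33 in controls. By limma-voom its log2 fold change was -3.63 ± 0.88 (adjusted p = 0.023), and 4 members were called where 4.8% of all rows were. No Cer library reached the 10 reads of the read filter. The row passed it through control and other libraries, so nothing is read from its call. With the 1 RPKM filter dropped in the main test, the adjusted p of wnt11.L was 0.096. Summed RPKM of 25 dorsal marker rows other than CER1 was 452.6 to 649.1 in these embryos, against 962.6 to 1389 in the 6 controls. Summed RPKM of the 14 ventral marker rows was 252.5 to 431.5, against 493.9 to 997.7. The part of these shifts in the Wnt values was not tested.

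At stage 9 no Cer library had less wnt5b.S than its batch control. Cer embryos had 0.868, 0.608 and 1.14 RPKM, against 0.854, 0.364 and 0.606 in controls, a log2 fold change of 0.31. At stage 9 the row passed the 1 RPKM filter through 1 Cer and 1 Wnt8 library, at 1.14 and 1.43 RPKM. The difference between stages, -1.41 ± 0.20 on the log2 scale, was called (adjusted p = 2.5e-04 by limma fits and Satterthwaite degrees of freedom). Since a Cer library helped the row past that filter, nothing is read from this call. Of 17746 rows tested at both stages, 1.26% were called in that difference. With no filter, a setting added once the values were seen, it was -1.41 ± 0.21 (adjusted p = 0.0012), and wnt5b.1 was called too at -1.14 ± 0.20 (adjusted p = 0.0037), where 1.02% of 35948 rows were. Without batch as a term the difference was -1.13 and was not called (adjusted p = 0.94). These stage 9 levels are near 0.5, the amount added before taking logs, so a change there is compressed. wnt11b.L in Cer embryos at stage 9 was 23.5, 18.6 and 33.5 RPKM, against 40.2, 19.0 and 47.4, with a log2 fold change of -0.43 (adjusted p = 0.71). None of the 8 members tested was called there, where 0.399% of all rows were called, 2 members had an unadjusted p below 0.05 and limma-voom called 0 of 23 (0.754% of all rows).

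**Figure D3:**
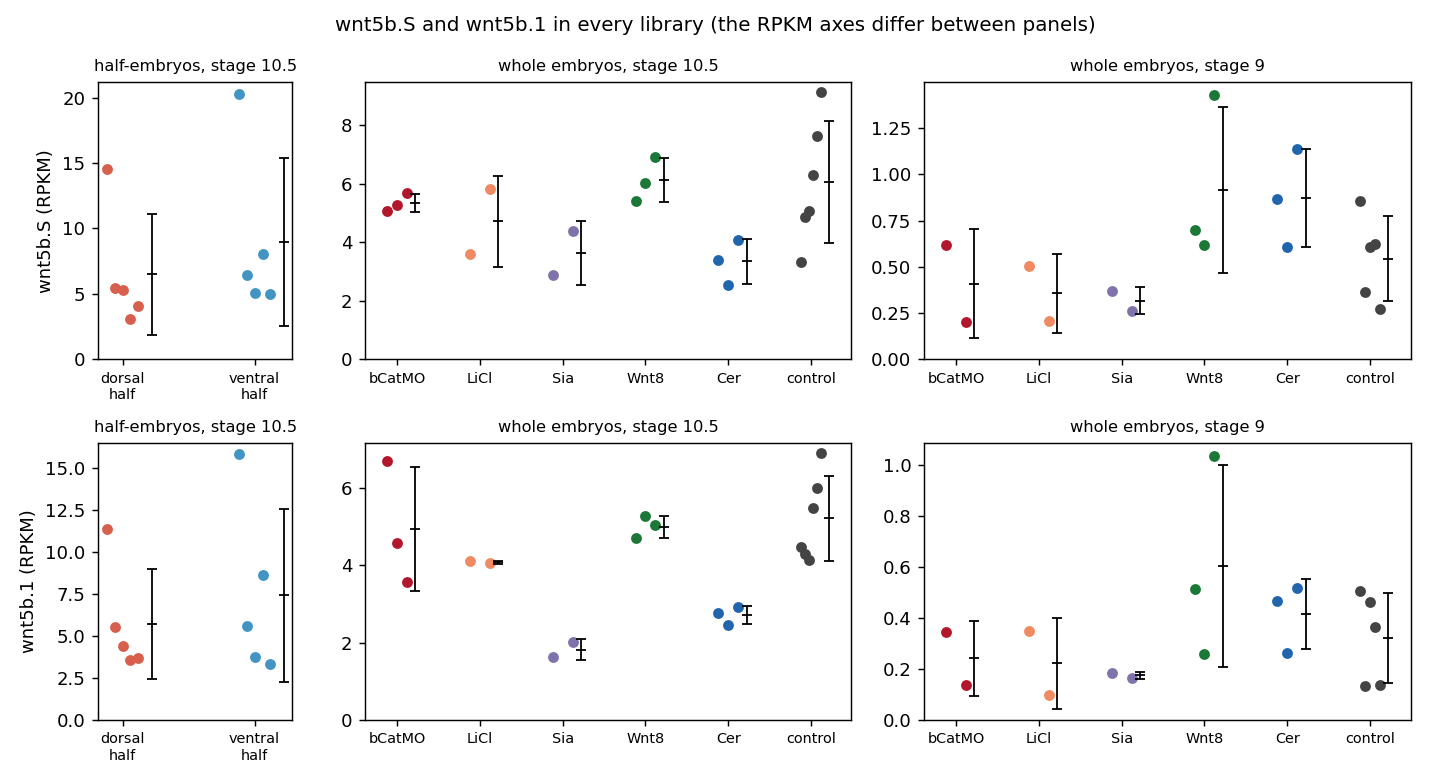
wnt5b.S and wnt5b.1 in RPKM in every library, one point per library with group mean and SD as bars, on axes that differ between panels. At stage 10.5 the Cer libraries lie at 2.45 to 4.08 RPKM, and half-embryo pair 1 lies above the other pairs.

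Embryos injected with Siamois mRNA had less wnt5b.1 and more of 1 WNT7A match, Xelaev18001817m, at stage 10.5 than their batch controls. These were 2 of 10 members tested, where 4.16% of all rows were called, 1 lower (1.83% of all rows) and 1 higher (2.34%). wnt5b.1 had 1.62 and 2.02 RPKM in Sia embryos, against 4.31 and 4.15 in controls. The groups do not overlap, and the log2 fold change was -0.97 ± 0.16 (limma, adjusted p = 0.0037). Without batch as a term it was -1.29 ± 0.21 (limma, adjusted p = 0.0017). Without Sia replicate 1 it was -0.79, with adjusted p = 0.092. wnt5b.S, at 2.86 and 4.39 against 4.85 and 5.06, had -0.38 ± 0.15 (adjusted p = 0.23).

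The WNT7A match Xelaev18001817m had 1.80 and 2.22 RPKM in Sia embryos, against 0.895 and 0.524 in controls. The Sia libraries had 2.01 and 4.24 times their controls, and the log2 fold change was 1.13 ± 0.19 (limma, adjusted p = 0.0034). Without Sia replicate 2 it was 0.74 with adjusted p = 0.12, and without batch as a term 0.95 with adjusted p = 0.18. Dorsal marker rows without CER1 summed to 1973 to 2324 RPKM in Sia embryos, against 962.6 to 1389 in controls, and ventral ones to 260.3 to 331.2, against 493.9 to 997.7; their part in the Wnt values was not tested. By limma-voom 2 members were called, where 5.54% of all rows were. In reads Xelaev18001817m had 67 and 105 in Sia libraries, against 36 and 24 in controls. Another WNT7A match, Xelaev18002574m, had 0.166 and 0.306 RPKM in Sia embryos, against 0.173 and 0.231 in controls. It did not pass the 1 RPKM filter, and limma-voom gave it 0.13 ± 0.28 (adjusted p = 0.87). wnt11b.L had 40.3 and 52.9 RPKM in Sia embryos, against 44.3 and 73.5 (-0.32 ± 0.10, adjusted p = 0.10). At stage 9 Sia called 0 of 8 members, where 0.281% of all rows were called, with 0 at an unadjusted p below 0.05. Limma-voom called 1 of 23, against 0.484% of all rows. This was wnt8b.S, which passed the read filter through its 2 Sia libraries, so nothing is read from the call.

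LiCl called the same WNT7A match, and no other of the 10 members, where 14.2% of all rows were called and 3.8% were higher. Xelaev18001817m had 1.53 and 1.16 RPKM in LiCl embryos, against 0.565 and 0.524 in the batch controls. LiCl did not overlap these 2 controls, but the lower LiCl value lies within the range of all 6 (0.524 to 1.16). The log2 fold change was 0.74 ± 0.19 (limma, adjusted p = 0.022). Leaving out any 1 of the 4 libraries ended the call, with adjusted p from 0.084 to 0.20, and without batch as a term it was 0.48. A share of 1 in 10 lies below the share over all rows. Dorsal marker rows without CER1 summed to 1923 to 2196 RPKM in LiCl embryos, against 962.6 to 1389 in controls, and their part in this value was not tested. wnt11b.L had 47.6 and 84.2 RPKM in LiCl embryos, against 42.2 and 73.5 in controls, which is 1.13 to 1.15 times as much (0.23 ± 0.10, adjusted p = 0.13). With size factors its adjusted p was 0.045. By limma-voom it was 0.028. That test called 2 members, wnt11b.L and notum.L, where 11.5% of all rows were called, and gave Xelaev18001817m 1.10 ± 0.34 (adjusted p = 0.051). Another WNT7A match, Xelaev18002574m, had 0.174 and 0.250 RPKM in LiCl embryos, against 0.230 and 0.231 in controls. Limma-voom gave it 0.04 ± 0.30 (adjusted p = 0.96). For Xelaev18001817m, LiCl replicate 2 and Sia replicate 2 share the control at 0.524 RPKM, so their rises are not independent. In bCatMO embryos Xelaev18001817m had 0.997, 1.15 and 0.608 RPKM, against 0.565, 0.895 and 0.524 in controls. That was higher in 3 of 3 batches (0.28 ± 0.16, limma, adjusted p = 0.34). Dorsal half-embryos had 0.863 to 2.47 RPKM of this row and ventral ones 1.02 to 2.43. At stage 9 LiCl called none of the 8 members, where 0.448% of all rows were called, with 0 at an unadjusted p below 0.05 and 0 of 23 by limma-voom (0.32% of all rows).

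**Figure D4:**
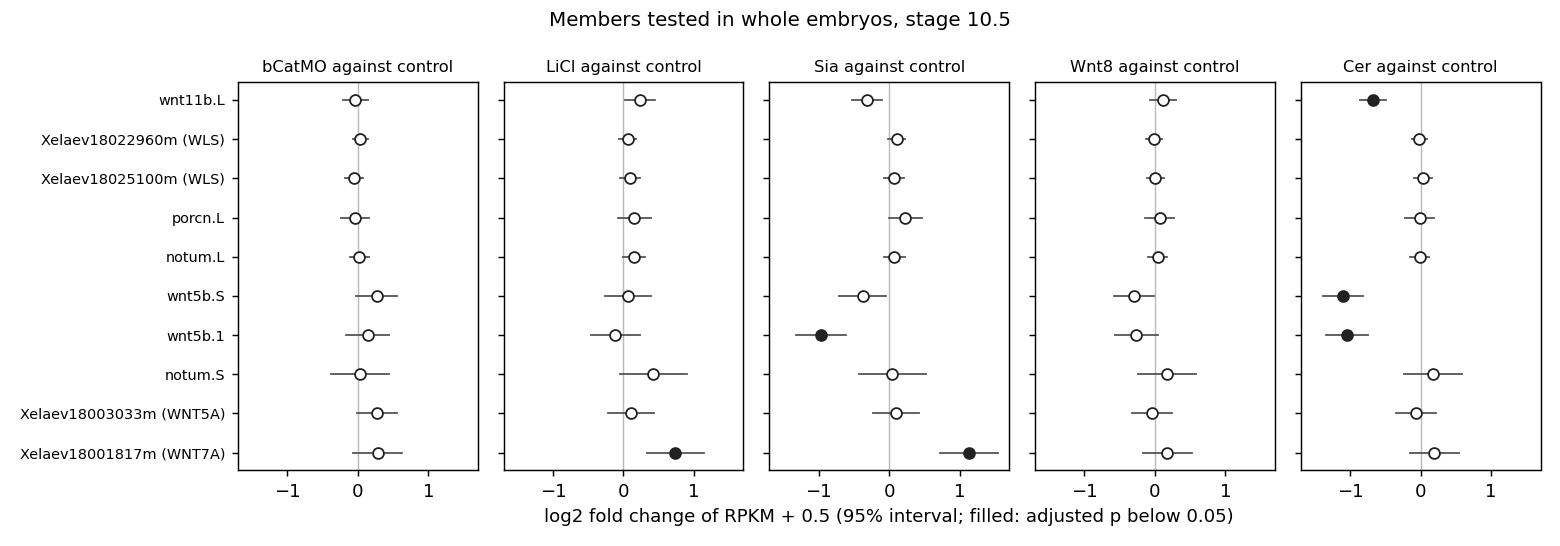
Log2 fold changes of RPKM + 0.5 with 95% intervals for the 10 members tested in whole embryos at stage 10.5, each treatment against controls, filled where the adjusted p is below 0.05. The Cer panel has 3 filled points to the left, Sia has 1 on each side, LiCl has 1 to the right, and bCatMO and Wnt8 have none.

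The β-catenin morpholino called 0 of 10 members at stage 10.5, where 7.15% of all rows were called, with 0 members at an unadjusted p below 0.05. wnt11b.L had 40.6, 46.7 and 67.6 RPKM in bCatMO embryos, against 42.2, 44.3 and 73.5 in controls (-0.03, 95% interval -0.22 to 0.15). That interval bounds the change, and shows no equality. By limma-voom 1 member was called where 5.51% of all rows were. This was wnt11.L, with 2, 5 and 1 reads in bCatMO embryos, against 17, 45 and 7 in controls (-2.57 ± 0.72, adjusted p = 0.049). No bCatMO library reached the 10 reads of the read filter. The row passed it through control and other libraries, so nothing is read from this call. Each bCatMO library had 0.118 to 0.199 of its control's RPKM. With the 1 RPKM filter dropped and log2(RPKM + 0.5) kept, adjusted p was 0.080. The same row had 41 and 31 reads in Sia embryos, against 45 and 7 in their controls, and 35 and 23 reads in LiCl embryos, against 17 and 7.

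The Wnt8-labelled embryos called 0 of 10 members at stage 10.5, where 0.462% of all rows were called, with 1 member, wnt5b.S, at an unadjusted p below 0.05 and 0 of 19 called by limma-voom (0.698% of all rows). At stage 9 bCatMO called 0 of 8, where 0.696% of all rows were called, 1 member had an unadjusted p below 0.05 and limma-voom called 0 of 23 (0.59% of all rows). Wnt8 at stage 9 called 0 of 8, where 0.108% of all rows were called, with 0 members at an unadjusted p below 0.05 and 0 of 23 by limma-voom (0.271% of all rows). wnt11b.L had 57.5, 56.9 and 64.9 RPKM in Wnt8 embryos at stage 10.5, against 53.1, 51.2 and 61.3 in controls (0.12, limma, adjusted p = 0.90). Dorsal marker rows without CER1 summed to 1431 to 1902 RPKM in Wnt8 embryos at stage 10.5, against 962.6 to 1389 in controls. Ventral marker rows summed to 266.3 to 328.4, against 493.9 to 997.7. The part of these shifts in the Wnt values was not tested.

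The notum.S row was high in whole batches. At stage 10.5 the 3 libraries of control batch 5 had 8.19 RPKM in Cer, 8.99 in Wnt8 and 9.35 in the control, against 1.15 to 3.40 in all other whole-embryo libraries. At stage 9 the 3 libraries of batch 2 had 10.6, 8.15 and 7.22 in the same order, against 0.624 to 3.04 in the others. Half-embryo pairs 1, 4 and 5 had 4.35 to 6.29 RPKM and pairs 2 and 3 had 1.58 to 2.40. In the main limma test no treatment was called, the largest log2 fold change being 0.83 ± 0.18 for Cer at stage 9 (adjusted p = 0.12). By limma-voom the adjusted p of that change was 0.055. With bCatMO at stage 9 notum.S was called when only the comparison's own libraries were fitted (-0.54 ± 0.15, limma, adjusted p = 0.045). Its partner notum.L ranged from 9.09 to 16.2 RPKM in all libraries of both stages. The third NOTUM row, LOC100493204.L, stayed at or under 0.314 RPKM.

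**Figure D5:**
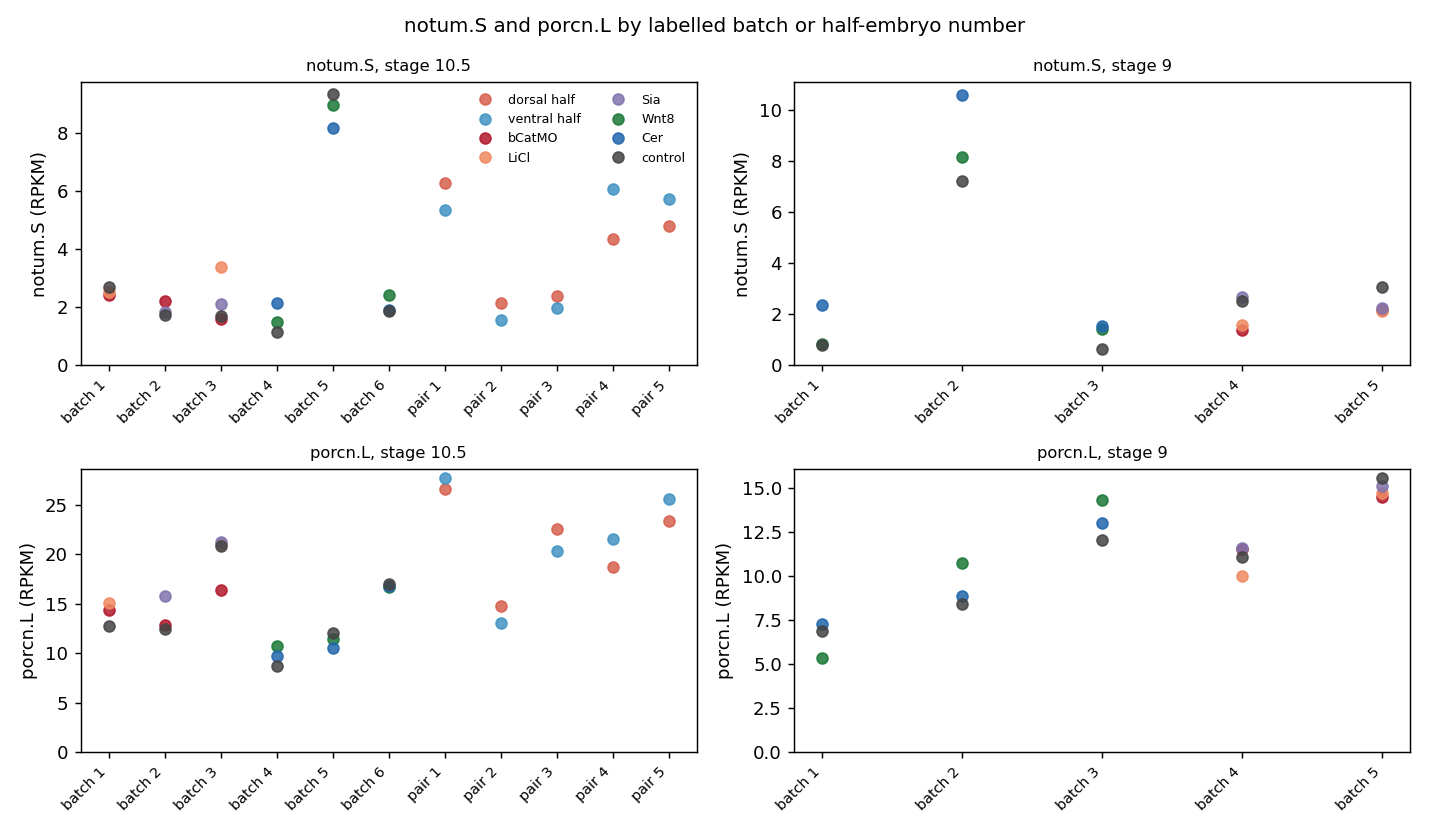
notum.S and porcn.L in RPKM by the labelled control batch, and by pair number for half-embryos, one point per library coloured by group. All libraries of batch 5 at stage 10.5 and of batch 2 at stage 9 are high for notum.S, whatever their treatment.

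Receptors, targets and effectors of the pathway were read in the same fits. Of 18 tested rows of Wnt feedback and target genes (lists chosen with earlier results of these data known), 12 were higher and 0 lower with LiCl at stage 10.5, where 14.2% of all rows were called, with a median of 0.91 beside -0.06 over all rows. Among them were hoxd1.S at 3.59 ± 0.28 (adjusted p = 4.3e-05) and sp5.L at 3.05 ± 0.25 (adjusted p = 4.7e-05), both induced by zygotic Wnt signalling. With Cer 0 were higher and 7 lower, where 4.54% of all rows were called (median -0.74 beside 0.003), such as lef1.L, a Wnt nuclear effector, at -1.39 ± 0.15 (adjusted p = 1.1e-04). With bCatMO 0 were higher and 8 lower, where 7.15% of all rows were called (median -0.38 beside -0.01). Sia gave 2 higher and 2 lower, where 4.16% were called, and Wnt8 at stage 10.5 gave 0 and 0, where 0.462% were called. At stage 9, of 14 tested rows of this list, Wnt8 gave 4 higher and 0 lower, where 0.108% of all rows were called. Its median was 0.88 beside -0.002 over all rows. LiCl gave 2 higher and 0 lower there, where 0.448% were called. The bCatMO, Cer and Sia embryos gave none, where 0.696%, 0.399% and 0.281% were called. Of 35 receptor rows tested at stage 10.5, bCatMO lowered 7 and raised 1, where 7.15% of all rows were called. Cer raised 5 and lowered 5, where 4.54% were. Sia raised 8 and lowered 1, where 4.16% were called, and LiCl raised 7 and lowered 2, where 14.2% were. Wnt8 raised 1 and lowered 0, where 0.462% were. The FZD8 match Xelaev18030716m, a Wnt receptor, was at -2.40 ± 0.16 with bCatMO and at 2.12 ± 0.18 with Sia (adjusted p = 2.5e-06 and 1.4e-05). The FZD4 match Xelaev18016347m was higher with Cer, at 1.93 ± 0.09 (adjusted p = 2.7e-07). Of 30 rows of the non-canonical branch, Sia called 1, where 4.16% of all rows were called, and LiCl called 5, where 14.2% were; shares this near the background are no result about the list.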

How the data were processed

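RPKM values per row were deposited by the authors, in 1 table for each stage, per the file headers. The submitters' processing notes list TopHat2 2.09 and DESeq without saying what each did. Build and strand use: not given in the sources used here. .L and .S copies can share reads. LiCl replicate 2 of stage 10.5 was read from the column numbered 3, since its label gives control 3 as its batch. Wnt8 and Cer replicate 1 at stage 10.5 have 1 label field naming stage 10. Of the tables' columns, 2 of averages were not used, and 1 emptied row per table and 6 repeated identifiers at 0 were dropped.

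Rows with at least 1 RPKM in 2 libraries were tested with limma 3.58.1 in R 4.3.3 (trend) on log2(RPKM + 0.5). Whole embryos of a stage shared 1 fit with group and batch (8 residual degrees of freedom at stage 10.5, 7 at stage 9); half-embryos had their own. P-values were Benjamini-Hochberg adjusted, two-sided. Whole reads were recovered from RPKM steps (100% whole within 0.005, in 34080 and 30836 rows) and tested with limma-voom. Deviations from the group mean correlated at 0.901, 0.861, 0.894, 0.54 and 0.831 between same-numbered dorsal and ventral libraries. Each dorsal library correlated best with the ventral library of its number. The labels do not say that a number marks a clutch, so the pairing is read from these same data. Other steps used Python 3.11.15. Rows with values were described if they match PORCN, WLS, NOTUM, WNT5A, WNT5B or WNT11, were called, or averaged at least 5 RPKM in controls. Members and lists were chosen with earlier results of these data known. The fits were run on simulated data without batch or pair effects, with changes set only in rows averaging above 5 RPKM. That check does not cover lower rows or the role of the batch term.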

Additional observations from a re-analysis of the deposited data

Results flagged for a closer look

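Of 38 groups of 4 to 10 libraries looked at, 4 held a library apart from the rest by Dixon's criterion, which chance gives in about 1 of 20 groups. notum.S had 9.354 RPKM in control replicate 5 of stage 10.5, where the next control had 2.69 (n = 6); the Wnt8 and Cer libraries of its batch were also high. wnt5b.1 had 11.36 RPKM in dorsal half-embryo 1, where the next dorsal one had 5.50 (n = 5). wnt5b.S had 14.57 RPKM in dorsal half-embryo 1, with the next at 5.41, and 20.27 RPKM in ventral half-embryo 1, with the next at 8.03 (n = 5 each). For the Cer effect on wnt5b.S a log2 difference of -1.41 (stage 10.5 minus stage 9) was called in a test of the difference itself. The row passed the filter at stage 9 through 1 Cer and 1 Wnt8 library, so nothing is read from that call. The difference was also called with no filter, a setting added once the values were seen. Without batch as a term it was not called.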

How the results depend on the processing

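Some calls rest on the batch term or on few libraries. Without batch as a term, limma still called wnt5b.1 with Cer (adjusted p = 0.024) and with Sia (adjusted p = 0.0017) at stage 10.5. In half-embryos the count of members called was 1 with the replicate block and 2 with the block and limma-voom, against 0. With no replicate block (batch left out) the counts at stage 10.5 were 1 for Cer, 0 for LiCl and 1 for Sia, and the Cer difference between stages called 0. With no filter LiCl gave 0, Sia 4, and Sia at stage 9 gave 1; the difference between stages then called 2 for Cer and 1 for Sia. Size factors gave 2 for LiCl. Limma-voom gave 1 for bCatMO, 2 for LiCl, and 1 for Sia at stage 9. The comparison's own libraries gave 1 for bCatMO at stage 9, which was notum.S. Leaving out 1 library gave 0 to 0 for LiCl and 1 to 2 for Sia, and 3 for Cer each time. The cause of these changes was not tested. Of the gene values called under a setting other than leaving out 1 library, 10 were tested in the main fit and counted here. Among their alternatives 95 kept their direction and side of the threshold, 12 lost the call, 6 gained it and 0 reversed. The limma-voom calls of wnt11.L and wnt8b.S are not in this count, since those rows had no main fit. The edgeR test on counts was not run, since the values are RPKM; limma-voom stood in for it. Rows under 1 RPKM could not be tested at this setting, and counting error limits rows with few reads.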

Other observations

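The wnt8b.S row, singled out after its values were seen, had 0.253 and 0.505 RPKM in Sia embryos at stage 9, against 0.0122 and 0 in the batch controls. In reads this was 23 and 47 in Sia libraries, against 1 and 0. It passed the read filter through these 2 Sia libraries, so no test is given. At stage 10.5 the same row had 0.0622 and 0.0490 RPKM in Sia embryos, against 0.0384 and 0.0253 in controls. wnt11.L at stage 9 was seen in batch 1 alone above 0.015 RPKM, with 0.337 RPKM in Cer, 0.405 in Wnt8 and 0.362 in the control.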
